A study of Mus musculus with 50 samples.

Results

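Head-to-head overlapping genes are pairs on opposite strands whose 5′ ends lie inside the stretch that both genes cover, so that each gene starts within the body of the other. The members were found from the chromosome, exon coordinates and strand that accompany the RNA counts, on 17 mouse chromosomes (1 to 5, 7 to 10 and 12 to 19, build mm9). A gene was a member if it held at least 60 counts over the 6 RNA libraries and its exons shared at least 50 bases with those of a gene on the other strand. Neither gene could contain the other, and both 5′ ends had to lie in the overlap. Of 37310 genes in the tables, 499 met the rule, and 498 of them passed the filter on low counts and were tested. The members were thus chosen by their summed counts and by position, and the levels given below are a description.

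The RNA came from J1 cells, mouse embryonic stem (ES) cells of the strain 129S4/SvJae, grown untreated on gelatin in medium with serum and the cytokine LIF. Wild type cells were compared with KO1 and KO2, the 2 lines of the genotype NSD1-/-, with 2 libraries of total RNA per group. NSD1 is a methyltransferase for lysine 36 of histone H3, and the comparison asks how transcription at these loci differs in cells without it. How the lines were made, whether each is 1 clone and whether 2 libraries of a group stem from different cultures is not in the labels. The p-values therefore rest on the spread from library to library alone, and that spread may be technical.

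Where the 5′ ends of opposite-strand genes overlap, each gene is first transcribed toward and across the start of the other, and the promoters lie close together. Closely spaced promoters on opposite strands are known in mammals for CpG islands, GC-rich stretches dense in the CpG dinucleotide, and seldom carry a TATA box. Many active promoters also release an antisense transcript upstream, and several long non-coding RNAs of ES cells are annotated beside the start of a protein-coding gene on the other strand.

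The counting used a strand setting of 1, by which a fragment counts only where its first read has the orientation of the gene. Abundant genes held few counts and the genes opposite them held many, so counts at a member were read as fragments of the gene opposite, from the part of its 5′ exons that the member's exons cover. Pcbp2, which encodes an abundant RNA-binding protein, held 511 counts over the 6 libraries, and Gm17403, the non-coding gene head to head with it, held 33862. Values are given for the counted member, with the opposite gene named. The tables hold 1 number per gene, so where in the member's exons the fragments lay is not known, and fragments from another transcript of that strand would be counted alike.

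The 250 bases in front of the opposite gene are shown for 6 members that the results below turn on, because they are the promoter side of the gene whose fragments were read. Each runs 5′ to 3′ on the strand of the opposite gene in mm9 and ends at the base before its annotated start. Capitals mark GGGCGG, the box bound by Sp1, CCAAT, the box bound by NF-Y, and CCGGAA, the core bound by Ets factors, each on either strand, and adjoining matches may share bases.
Pim1, opposite Gm16912, chr17:29627507-29627756, plus strand: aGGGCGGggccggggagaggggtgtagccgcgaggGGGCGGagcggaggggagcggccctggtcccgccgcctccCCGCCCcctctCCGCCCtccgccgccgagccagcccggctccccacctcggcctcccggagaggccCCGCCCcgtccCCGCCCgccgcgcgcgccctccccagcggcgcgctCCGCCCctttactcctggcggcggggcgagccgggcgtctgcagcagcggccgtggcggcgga
Pcbp2, opposite Gm17403, chr15:102300813-102301062, plus strand: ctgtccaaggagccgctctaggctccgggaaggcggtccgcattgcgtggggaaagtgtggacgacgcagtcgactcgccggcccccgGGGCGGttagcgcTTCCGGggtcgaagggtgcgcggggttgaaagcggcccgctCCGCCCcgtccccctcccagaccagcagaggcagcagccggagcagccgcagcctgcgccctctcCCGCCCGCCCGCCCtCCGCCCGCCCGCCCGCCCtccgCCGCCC
Lin28a, opposite Gm13061, chr4:133574757-133575006, minus strand: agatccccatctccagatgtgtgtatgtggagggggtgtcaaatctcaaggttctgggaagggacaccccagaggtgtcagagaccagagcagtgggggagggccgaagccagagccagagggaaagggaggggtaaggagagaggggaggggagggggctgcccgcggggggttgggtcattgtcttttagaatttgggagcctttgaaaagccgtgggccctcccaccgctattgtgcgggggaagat
Tcfap2a, opposite Gm16989, chr13:40829193-40829442, minus strand: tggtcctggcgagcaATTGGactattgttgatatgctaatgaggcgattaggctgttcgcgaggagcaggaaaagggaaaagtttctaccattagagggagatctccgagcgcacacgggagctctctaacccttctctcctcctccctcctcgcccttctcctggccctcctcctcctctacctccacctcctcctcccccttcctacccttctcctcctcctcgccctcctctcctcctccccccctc
Nrg1, opposite Gm17443, chr8:33119582-33119831, minus strand: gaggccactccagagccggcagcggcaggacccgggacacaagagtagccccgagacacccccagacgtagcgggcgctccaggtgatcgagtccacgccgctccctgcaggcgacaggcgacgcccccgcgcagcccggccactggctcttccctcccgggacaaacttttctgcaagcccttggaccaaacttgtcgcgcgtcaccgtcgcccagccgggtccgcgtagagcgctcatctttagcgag
Id4, opposite A330033J07Rik, chr13:48356546-48356795, plus strand: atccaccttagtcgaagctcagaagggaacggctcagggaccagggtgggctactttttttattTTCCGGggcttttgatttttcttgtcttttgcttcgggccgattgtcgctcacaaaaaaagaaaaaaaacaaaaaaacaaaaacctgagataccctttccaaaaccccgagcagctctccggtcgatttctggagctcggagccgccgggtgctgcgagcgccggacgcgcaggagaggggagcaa

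These windows differed widely in composition. The Pim1 window was 83.6% G and C with 7 GGGCGG matches, and the Pcbp2 window was 76.4% with 10 GGGCGG matches and 1 CCGGAA match. The Nrg1 window lay at 68.4% and the Tcfap2a window at 58.4%, with Lin28a between them, and of these motifs a CCAAT match in front of Tcfap2a was the only one found in the 3. The Id4 window, at 51.6%, held 1 CCGGAA match. The window in front of Nrg1 lies wholly within exons of Gm17443, whereas the windows of Pim1, Pcbp2, Lin28a and Id4 hold no exon bases of the member.

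Over all members, the composition of the shared stretch is given as a description. By the rule it holds both 5′ ends, so the comparisons with other overlaps do not separate arrangement from position in the gene. The 99 pairs with both genes members enter once for each gene. The exonic overlap of the 499 members had a median GC content of 64.4%, and a median CpG content of 0.877 of that expected from its C and G. Over the 895 tail-to-tail genes of the same chromosomes and count minimum, whose overlap lies at their 3′ ends, the medians were 46.7% and 0.284, and over the 527 nested genes 54.5% and 0.448. The lower quartile of GC content among the head-to-head overlaps, 59.3%, lay above the upper quartile of the tail-to-tail overlaps, 53.4%. Around the 5′ ends of the 497 opposite genes, CpG dinucleotides were densest from 100 to 200 bases downstream of the start, at 9.13 per 100 bases, against 4.31 there over all genes of the tables. Those opposite tail-to-tail genes reached 8.59 in the same bin, so a high density at the start itself was shared with them.

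**Figure D1:**
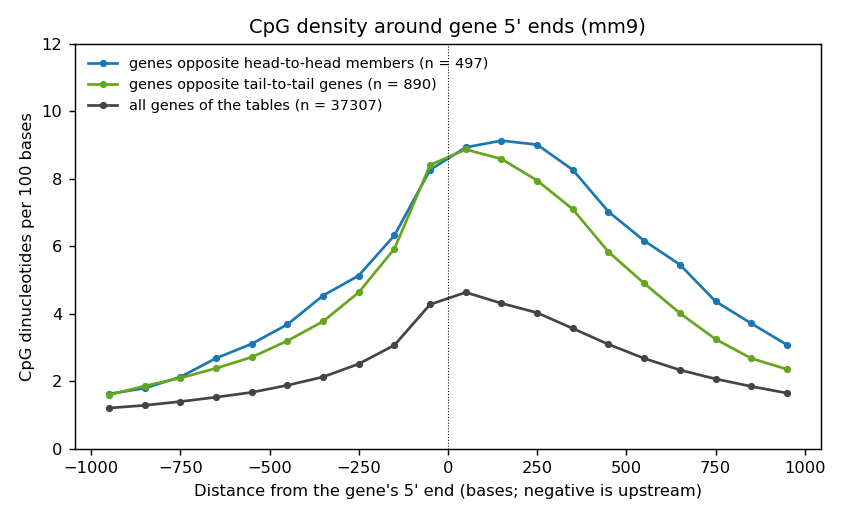
CpG dinucleotides per 100 bases in bins of 100 bases (y axis) by distance from the annotated 5′ end in bases (x axis, negative upstream), as means over 497 genes opposite head-to-head members, 890 genes opposite tail-to-tail genes and all 37307 genes with a full window. The first group lies above the others from the 5′ end onward, by little in the first bin (8.94 against 8.87 for genes opposite tail-to-tail genes). Upstream it is above them in most bins, but below those opposite tail-to-tail genes in the last bin before the 5′ end (8.27 against 8.41). The first group peaks at 9.13 against 4.31 for all genes in the bin from 100 to 200 bases.

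Windows from 250 bases before to 50 bases after the start were searched for the same motifs. GGGCGG was present on either strand in 60.4% of the windows of genes opposite head-to-head members, in 63.1% of those opposite tail-to-tail genes and in 30.4% over all genes. The shares with CCGGAA were 33.2%, 33.0% and 12.8%, and those with CCAAT were 37.0%, 38.4% and 38.4%. TATAAA, the TATA box, searched on the gene's own strand in the 50 bases before the start, was found in 0.604%, 0.899% and 2.74%. Over the 22380 protein-coding genes alone the shares were 43.4% for GGGCGG, 17.5% for CCGGAA, 37.9% for CCAAT and 3.09% for TATAAA. The windows of the 499 members themselves held GGGCGG in 48.9% and CCGGAA in 22.6%. A match is a match of letters only, and no binding was measured here.

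The 499 members formed 400 distinct pairs with 497 different opposite genes, and 49 members had exons opposite more than 1 gene. Both genes were protein-coding for 314 members. For 133 members a non-coding gene was counted opposite a protein-coding gene, 48 were protein-coding opposite a non-coding gene, and 4 had no protein-coding gene in the pair. Members annotated as long intergenic non-coding RNA (lincRNA) numbered 94. The exonic overlap ran from 50 to 2455 bases with a median of 241.

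Summed counts of a member ran from 60 to 126500 with a median of 272, against medians of 560 for tail-to-tail, 410 for nested and 115 for genes with no gene opposite. Members took 7.32% to 8.17% of the counts of a library, and the median member held 43 to 49 counts per library. Length of overlap told little of the level: over 499 members, which share libraries and partly share sequence, Spearman's rho was 0.12 between summed counts and overlap, and -0.0042 between the counts of a member and those of its opposite gene. The member held more counts than the opposite gene in 365 of 499 cases and at least 10 times as many in 229, and the opposite gene held under 60 counts in 253. The minimum of 60 counts applied to the member only, so in those 253 cases the member was higher by the rule. These numbers, and rho with the opposite gene, thus partly describe how members were chosen.

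**Figure D2:**
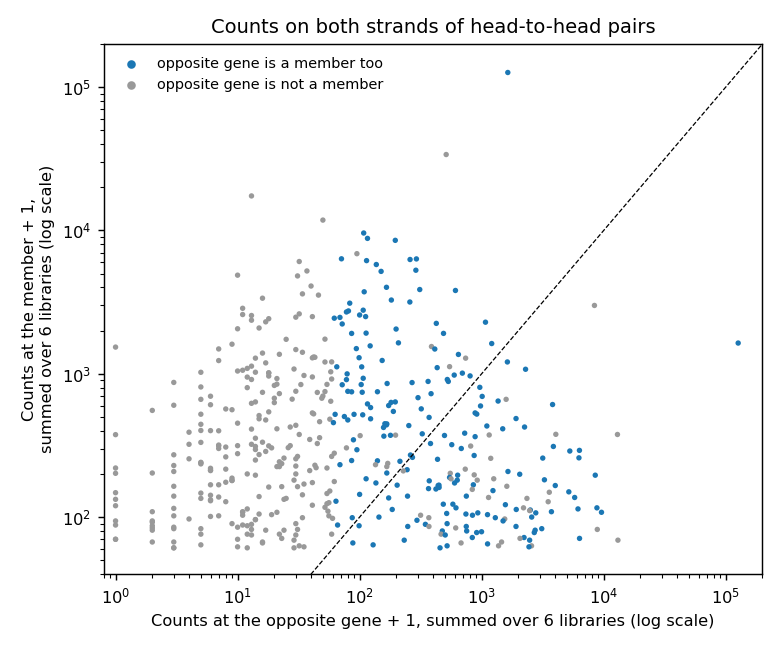
Counts over 6 libraries plus 1 at each of the 499 members (y axis, log scale) against those at the opposite gene (x axis, log scale), with blue points where the opposite gene is a member too and grey where it is not. Points above the dashed line of equality, 365 of 499, hold more counts at the member than at the gene opposite. The minimum of 60 counts was set for the member only. It places the 253 members with an opposite gene under 60 counts above the line by rule.

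By count, the members were led by 6 genes, given here with the function of the gene opposite. Ccdc107 (chromosome 4, 43505772 to 43508793) held 19291 to 23707 counts per library and 126500 in all, 22.5% of all counts at members. Its exons share 124 bases with RNase_MRP, the RNA of the ribonuclease that processes ribosomal RNA. Gm17403 (chromosome 15, 102285957 to 102314153) held 5091 to 6016 counts. Kctd18, opposite Sgol2, which encodes a protector of cohesin at centromeres, held 2339 to 3207. Gm9828, opposite Btf3 of the nascent polypeptide-associated complex, held 1838 to 2071. Gm20512, opposite Tomm40, the pore of the outer mitochondrial membrane translocase, held 1516 to 1673, and D17H6S56E-5, opposite the valyl-tRNA synthetase gene Vars, 1422 to 1521. Set per kilobase of exonic overlap, the order changed, with 1020160 summed counts for Ccdc107, 262496 for Gm17403, 37186 for Gm20512 and 7092 for Kctd18.

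Of these 6 abundant members, Gm17403 was the one called with KO1 and KO2 set together against wild type, that is, it had an adjusted p under 0.05 by the quasi-likelihood test of edgeR, adjusted after Benjamini and Hochberg over the 5034 genes tested. It held 5992 and 6016 counts in wild type, 6015 and 5371 in line KO1 and 5091 and 5377 in line KO2. In CPM, the counts scaled to a common library size, all 4 knockout libraries lay below both wild type libraries, at 4584 ± 191 (SD, n = 4) against 5179 ± 90.6 (n = 2). The log2 fold change was -0.18 ± 0.04 (standard error of the fit, as in all that follow), adjusted p 0.00409. The call was lost with DESeq2 (adjusted p 0.0553) and without wild type replicate 1 (0.0533). At the other 5 the log2 fold change lay between -0.06 and 0.01, with edgeR adjusted p from 0.567 to 0.992. Kctd18 was called in KO2 against wild type (-0.18 ± 0.06, edgeR adjusted p 0.0460) and in KO1 against KO2 (0.23 ± 0.06, 0.00314). DESeq2 called Kctd18 between the lines but not in KO2 against wild type.

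With KO1 and KO2 set together against wild type, fragments rose at 7 members, among them those at both genes of the Pim1 locus, and fell at 29, among them members opposite Lin28a, Nrg1, Ctgf, Col5a1 and Msc. These 36 were 7.23% of the 498 tested members, close to the 6.62% called among all 5034 genes. The falls made up 5.82% of members against 3.89% of all genes, and the rises 1.41% against 2.72%. The median log2 fold change was -0.04 over members and -0.01 over all genes tested. Because this comparison averages the lines, a call in it need not hold in each line. Among others, Dtx3l, Gm10657 and Gm7628 were not called in KO1 alone, and F830208F22Rik and Gm11131 were not called in KO2 alone. Pim1, Gm16912 and Gm13061 were among those called in each line. The spread was taken within each group. With KO1 and KO2 as 1 group of 4, so that the difference between lines counted as spread, edgeR called 0 of the 498 members (smallest adjusted p 0.123, at Gm16912), with 52 at an unadjusted p under 0.05, and 0.119% of all tested genes. Without wild type replicate 1 the count was 23, against 3.68% of all genes tested in that fit, and DESeq2 called 12 of the 369 members for which it gave an adjusted p, against 4.12% of all such genes. All 12 were also called by edgeR.

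Gm16912 (chromosome 17, 29598841 to 29628870, minus strand), a lincRNA gene, and Pim1 (29627757 to 29632390, plus strand), which encodes a serine/threonine kinase known as a proto-oncogene, share 468 bases of exon just downstream of the GC-rich window shown above. Gm16912 held 627 and 773 counts in libraries of wild type cells, with 1215 and 1181 in KO1 and 942 and 1045 in KO2. All knockout libraries lay above wild type, and KO1 lay above KO2. In CPM the means were 603 ± 76.8 (SD, n = 2) in wild type, 986 ± 5.52 in line KO1 and 851 ± 15.6 in line KO2. The log2 fold change was 0.60 ± 0.06 in the lines together (edgeR adjusted p 5.44e-08), 0.71 ± 0.07 in KO1 (1.47e-08) and 0.50 ± 0.07 in KO2 (9.49e-06), and these 3 comparisons share the wild type libraries. Apart from the fit with KO1 and KO2 as 1 group, its call in the lines together held in each alternative run.

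Pim1 itself held 10 and 12 counts in wild type against 30 and 32 in line KO1 and 28 and 24 in line KO2. The groups did not overlap, and the log2 fold change was 1.32 ± 0.30 (edgeR adjusted p 0.00472). The call was lost with DESeq2 (adjusted p 0.0975) and without wild type replicate 1 (0.0802). Its counts were 1.53% to 1.57% of the counts of the pair in wild type, 2.41% and 2.64% in line KO1 and 2.89% and 2.25% in line KO2. Whether these few fragments came from Gm16912 transcripts or from Pim1 itself was not tested. The genes of a pair share their overlap and libraries, so Pim1 and Gm16912 are not independent.

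Among the other members with a rise, Dtx3l (chromosome 16, 35926597 to 35939237) lies opposite Parp9, and their proteins act as a complex of a ubiquitin ligase and an ADP-ribosyltransferase-like partner. Dtx3l held 33 and 18 counts in wild type, 39 and 48 in line KO1 and 82 and 80 in line KO2, so KO2 stood highest. The log2 fold change in the lines together was 1.18 ± 0.23 (edgeR adjusted p 9.52e-04). That call was lost without wild type replicate 2, where the log2 fold change was 0.79. In KO1 alone Dtx3l was not called (0.70 ± 0.27, edgeR adjusted p 0.107). Hspd1, opposite Hspe1, encodes the mitochondrial chaperonin whose co-chaperonin Hspe1 encodes. Its counts ran at 98 and 142 in wild type, 175 and 172 in line KO1 and 175 and 167 in line KO2 (0.48 ± 0.13, adjusted p 0.0151). That call was lost without wild type replicate 1 (0.447) or KO1 replicate 2 (0.0561) and with DESeq2 (0.127).

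Gm16794, opposite the 5′ exonuclease gene Xrn1, held 110 and 104 counts in wild type and 141 to 165 in the knockout libraries (0.43 ± 0.12, edgeR adjusted p 0.0252). F830208F22Rik, opposite Pstpip2, held 13 and 30 against 31 to 52 (0.98 ± 0.26, adjusted p 0.0182). Gm10657, opposite Cd276, which encodes the immune checkpoint protein B7-H3, held 17 and 16 against 23 to 43 (0.96 ± 0.28, adjusted p 0.0309). None of these 3 calls was kept with DESeq2, where the adjusted p were 0.213, 0.160 and 0.246. Leaving out single libraries ended them too: at Gm16794 without wild type replicate 1 (0.0735), wild type replicate 2 (0.232) or KO1 replicate 1 (0.0769), and at F830208F22Rik without wild type replicate 1 (0.453) or KO1 replicate 2 (0.0702). At Gm10657 it was so without wild type replicate 1 (0.124) or 2 (0.191), KO1 replicate 2 (0.164) or KO2 replicate 1 (0.0601).

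**Figure D3:**
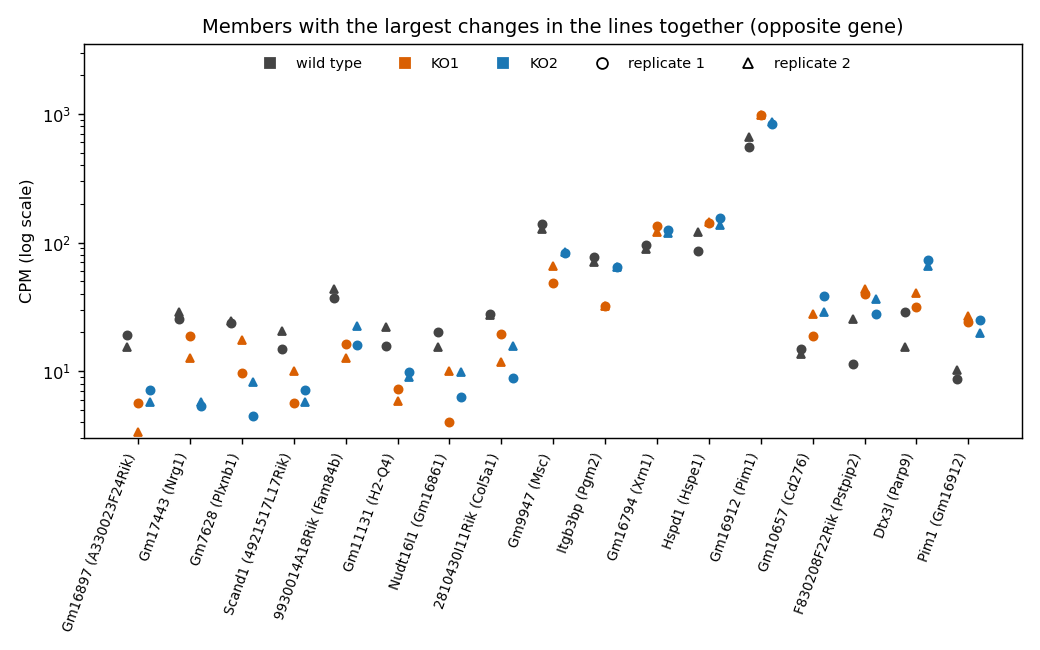
CPM (log scale) in each library for the members with the largest called changes in the lines together, the 10 that fell on the left and the 7 that rose on the right, with the opposite gene in brackets; colour gives the group and symbol the replicate. In each member shown the 4 knockout libraries lie on 1 side of both wild type libraries, because non-overlapping groups were part of the rule that named them.

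Of the 10 members with the largest falls in the lines together and no overlap of groups, 6 were lincRNA genes, and most held few counts. Gm16897 (opposite A330023F24Rik) fell from 22 and 18 counts in wild type to 4 to 8 in the knockout libraries (log2 fold change -1.66 ± 0.37). Gm17443, opposite Nrg1, the ligand of the ErbB3 and ErbB4 receptors, fell from 29 and 34 to 23 and 15 in KO1 and to 6 and 7 in KO2 (-1.53 ± 0.29). Gm7628, opposite Plxnb1, a semaphorin receptor gene, fell from 27 and 29 to 12 and 21 in KO1 and 5 and 10 in KO2 (-1.36 ± 0.31). For these 3, edgeR adjusted p were 0.00390, 5.96e-04 and 0.00433, and DESeq2 gave no adjusted p because of its filter on low counts. The call at Gm16897 was lost without wild type replicate 1 (adjusted p 0.104).

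Larger counts lay behind 9930014A18Rik, opposite Fam84b, which fell from 42 and 51 to 15 to 27 (-1.26 ± 0.23, edgeR adjusted p 4.78e-04), and Gm9947 (chromosome 1, 14745535 to 14748454). Gm9947 lies opposite Msc, which encodes the repressor musculin of the basic helix-loop-helix class, and held 160 and 149 counts in libraries of wild type cells, with 60 and 78 in KO1 and 93 and 102 in KO2. All knockout libraries were lower, KO1 most (-0.95 ± 0.13, edgeR adjusted p 8.23e-06). Scand1, opposite 4921517L17Rik, fell from 17 and 24 to 7 to 12 (-1.30 ± 0.35). Gm11131, opposite the class I histocompatibility gene H2-Q4, fell from 18 and 26 to 7 to 11 (-1.26 ± 0.33), and Nudt16l1, opposite Gm16861, from 23 and 18 to 5 to 12 (-1.22 ± 0.36). The edgeR adjusted p of Scand1, Gm11131 and Nudt16l1 were 0.0201, 0.0159 and 0.0362, and DESeq2 called none of them. The Scand1 call was lost without wild type replicate 2 (0.304) or KO1 replicate 1 (0.0717), and the Gm11131 call without wild type replicate 2 (0.321) or KO1 replicate 2 (0.0516). Nudt16l1 lost its call without wild type replicate 1 (0.313) or 2 (0.0502), KO1 replicate 1 (0.139) or KO2 replicate 1 (0.0720).

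Itgb3bp, opposite the phosphoglucomutase gene Pgm2, fell mainly in KO1, from 88 and 83 counts in wild type to 40 and 38, against 73 and 78 in KO2. The log2 fold change in the lines together was -0.69 ± 0.16 (edgeR adjusted p 0.00433), lost with DESeq2 (0.107) and without wild type replicate 1 (0.0808). Of the 29 falls, 17 were among the 125 members with the highest counts, and none of the 7 rises was among the 125 with the lowest. By class, 15 of the falls and 3 of the rises were at the 133 tested non-coding members opposite a protein-coding gene, and 12 and 3 at the 314 with both genes protein-coding. Among all 5034 tested genes 3.89% fell and 2.72% rose. Shares over all genes of like count or class were not computed, and the part of the count in these numbers was not tested.

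Gm13061 (chromosome 4, 133574062 to 133575784), opposite Lin28a, was the called member in the lines together among the 3 opposite pluripotency genes. Lin28a encodes an RNA-binding protein of stem cells that blocks maturation of let-7 microRNAs. Gm13061 held 515 and 503 counts in wild type against 401 and 362 in KO1 and 417 and 372 in KO2. All knockout libraries were lower, and KO1 and KO2 overlapped each other (439 ± 16.2 CPM in wild type, 327 ± 31.4 in the knockout libraries, SD, n = 2 and 4). The log2 fold change was -0.43 ± 0.08 (edgeR adjusted p 3.12e-04), with -0.48 ± 0.09 in KO1 and -0.37 ± 0.09 in KO2, which share the wild type libraries. Of the other members of the list, Gm2301, opposite Tbx3, and Gm14261, opposite Sall4, both transcription factors of ES cells, were at 0.08 ± 0.06 (adjusted p 0.573) and -0.11 ± 0.07 (0.417) in the lines together. Both were higher in KO1 than in KO2, by 0.27 ± 0.07 (edgeR adjusted p 0.00840) and 0.29 ± 0.08 (0.00814). At Gm2301 that call was lost with DESeq2 (0.0900), no filter (0.0623) and without KO1 replicate 1 (0.0529) or 2 (0.0663) or KO2 replicate 1 (0.0783), and at Gm14261 with DESeq2 (0.0854) and without KO1 replicate 2 (0.113) or KO2 replicate 2 (0.0509). Gm14261 was also called in KO2 against wild type (-0.25 ± 0.08, 0.0415), a call lost in 9 of its alternatives, with adjusted p from 0.0523 to 0.413. Counted themselves, Tbx3, Sall4 and Lin28a were members too, with edgeR adjusted p from 0.0873 to 0.964 over the 4 comparisons.

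Genes opposite members also included markers of fibroblasts. Gm15270 (chromosome 10, 24269247 to 24316914), opposite Ctgf, which encodes a secreted matrix-associated protein, held 208 and 227 counts in wild type, 188 and 159 in line KO1 and 124 and 118 in line KO2. KO2 was lowest and wild type highest with no overlap (log2 fold change -0.62 ± 0.10, edgeR adjusted p 1.68e-04). 2810430I11Rik, opposite the collagen gene Col5a1, held 32 and 32 against 24 and 14 in KO1 and 10 and 19 in KO2 (-0.98 ± 0.27, adjusted p 0.0226). This second call was lost with DESeq2 (0.284) and without wild type replicate 1 (0.120) or 2 (0.0934), KO1 replicate 2 (0.0984) or KO2 replicate 1 (0.0682). Apol7d, opposite the fibronectin gene Fn1, held 1311 to 1528 counts and was at 0.04 ± 0.05 (adjusted p 0.730).

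Read through the 4 genes opposite Fn1, Ctgf, Timp3 and Col1a1, fibroblast markers summed to 1699 and 1820 counts in libraries of wild type cells, with 1691 and 1709 in line KO1 and 1448 and 1602 in line KO2. Apol7d, opposite Fn1, held 8530 counts over the 6 libraries and so made up most of these sums. Counted at the markers themselves, which by the reading above stands for the other strand, the 8 fibroblast markers summed to 34 to 66 per library, with 3 at 0 in all. Markers of other cells could mostly be counted only in this second way, so their sums are not comparable with those read through an opposite gene. The 5 endoderm markers summed to 0 or 1 per library with 4 entries at 0 in all, the 3 mesoderm markers to 0 to 8, and the neuroectoderm markers Pax6 and Nes to 160 to 218. The 8 ES cell markers (Pou5f1, Sox2, Nanog, Zfp42, Esrrb, Klf4, Tdgf1 and Dppa5a), none with a gene opposite, held 309 to 336 counts per library in all, and 0 of them were at 0 in every library. What part other cells have in the falls opposite Ctgf and Col5a1 was not tested, and in bulk RNA fewer cells of a type and less RNA per cell cannot be told apart.

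From the other gene lists, read by the counted or the opposite gene, few members were called in the lines together. Of 4 members opposite growth factor and receptor genes Gm17443 fell (median log2 fold change of the 4 -0.31), and of 3 opposite developmental transcription factors Gm16989 fell (median -0.63), against a median of -0.01 over all tested genes. Of 7 counted genes of mitochondrial proteins (median log2 fold change 0.05), Hspd1 rose and Surf1, opposite Surf2, fell. By the reading above, values at counted genes stand for fragments of the genes opposite. Of 5 members opposite genes of this list (median 0.07), Hspd1, opposite Hspe1, was the one called. Surf1 went from 217 and 205 counts to 151 to 197 (-0.32 ± 0.10, edgeR adjusted p 0.0480). Surf1, which encodes an assembly factor of cytochrome c oxidase, lost that call under each alternative run, with adjusted p from 0.0561 to 0.618. The 1 member opposite a cell cycle gene, Gm2788 opposite the repressor E2f8, fell from 203 and 209 counts to 160 to 180 (-0.35 ± 0.10, adjusted p 0.0305). Among its alternatives that call was lost with DESeq2 (0.308) and without wild type replicate 1 (0.165) or 2 (0.185), KO1 replicate 1 (0.0507) or 2 (0.0816), or KO2 replicate 2 (0.0739), and with no filter (0.0516). No tested member on the lists of the cytoplasmic ribosome (5 counted, median -0.04), mitochondrial ribosome (5, -0.10), RNA processing (4, -0.04) or DNA repair and replication (2, -0.20) was called in the lines together. Read by the opposite gene, these lists had 1 (-0.42), 4 (-0.20), 5 (-0.08) and 5 members (0.12), and none was called there. The most abundant were Rpl18 opposite Sphk2 (-0.06 ± 0.10), Mrpl48 opposite Rab6 (0.01 ± 0.07), BC024978 opposite Snrpa (0.05 ± 0.07) and Mcm7 opposite Ap4m1 (-0.16 ± 0.13). The proteasome gene Psma4 lies opposite AY074887 (-0.02 ± 0.07), and the imprinted Nespas, opposite Gnas, held 3 to 17 counts (-0.63 ± 0.44). The list of chromatin genes for H3K36 and H3K27 had no member in either reading.

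In KO1 alone, 62 of 498 members were called, 16 higher and 46 lower. This was 12.4% against 9.79% of all tested genes, with 3.21% higher against 3.46% and 9.24% lower against 6.34%. The median log2 fold change was -0.07 over members and 0.01 over all. Genes with no gene opposite took 14.3% and 14.2% of the counts outside the ribosomal RNA locus AY036118 in KO1, against 12.5% and 12.8% in wild type and 12.3% and 12.2% in KO2, and the part of this shift in the KO1 values was not tested. The count was 35 without KO1 replicate 1 and 34 without KO1 replicate 2, where 4.97% and 5.32% of all tested genes were called, and 24 of 385 with DESeq2, which called 6.94% of all genes it adjusted.

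In KO1 the largest fall and the largest rise by log2 fold change were at members opposite regulators of transcription. Gm16989 (chromosome 13, 40823177 to 40830514), opposite Tcfap2a, the gene of the activator AP-2 alpha, held 51 and 41 counts in wild type against 11 and 6 in KO1 and 59 and 52 in KO2. KO1 stood apart from the other libraries (39.7 ± 6.91 CPM in wild type, 6.96 ± 2.73 in line KO1, 47.7 ± 6.87 in KO2, SD, n = 2 each). The log2 fold change was -2.49 ± 0.33 in KO1 (edgeR adjusted p 4.15e-06), 0.26 ± 0.22 in KO2 (0.531) and -2.75 ± 0.32 between KO1 and KO2 (1.46e-07). A330033J07Rik (chromosome 13, 48139600 to 48357992), opposite Id4, which encodes an inhibitor of basic helix-loop-helix factors, held 21 and 26 counts in wild type, 70 and 63 in line KO1 and 24 and 11 in line KO2. It was 1.43 ± 0.26 higher in KO1 (adjusted p 3.03e-04), -0.43 ± 0.35 in KO2 (0.504) and 1.86 ± 0.28 between the lines (8.71e-06). In the lines together Gm16989 was called too (-1.11 ± 0.24, adjusted p 0.00345), a value that averages a fall in KO1 with none called in KO2, and this call was lost with DESeq2 (0.0580) and without wild type replicate 1 (0.0917).

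Sugp2, opposite Armc6, was also high in KO1, at 37 and 45 counts in libraries of wild type cells, with 104 and 109 in KO1 and 30 and 32 in KO2 (1.31 ± 0.19 in KO1, edgeR adjusted p 1.12e-05, and 1.72 ± 0.20 between the lines, 1.16e-07). Mocs3, opposite Dpm1, a dolichol-phosphate mannose synthase gene, and 9430097D07Rik, opposite Pip5kl1, rose in KO1 by 1.17 ± 0.33 and 1.29 ± 0.37 (edgeR adjusted p 0.0180 and 0.0239). DESeq2 called neither of them in KO1. Neither call held up when single libraries were left out: at Mocs3 it was lost without wild type replicate 1 (0.0620) or 2 (0.109) or KO1 replicate 2 (0.212), and with DESeq2 (0.217). At 9430097D07Rik it was lost without wild type replicate 1 (0.0787) or 2 (0.145) or KO1 replicate 1 (0.0855) or 2 (0.135), and with no filter on low counts (0.0539). Among the larger falls in KO1, 9930014A18Rik was at -1.47 ± 0.28 (adjusted p 5.30e-04).

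In KO2 alone, 47 of 498 members were called, 19 higher and 28 lower, or 9.44% against 8.98% of all tested genes, with 3.82% higher against 5.01% and 5.62% lower against 3.97%. The median log2 fold change was -0.03 over members and -0.01 over all. The count was 29 without wild type replicate 1 and 23 without KO2 replicate 1, where 5.69% and 5.72% of all tested genes were called, and 6 of 352 with DESeq2, which called 6.55% of all genes it adjusted. Gm17443, opposite Nrg1, fell most (-2.26 ± 0.38, edgeR adjusted p 8.91e-05), and its value in KO1 was -0.79 ± 0.30 (0.0884). Gm7628, opposite Plxnb1, followed at -1.89 ± 0.39 (0.00155).

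Arf6, which encodes a small GTPase of membrane traffic, lies opposite Gm9887, and by the reading above counts at Arf6 stand for fragments of Gm9887. Arf6 held 26 and 28 counts in wild type against 27 and 21 in KO1 and 9 and 10 in KO2. Counts at Arf6 in KO2 were thus below the other libraries (-1.50 ± 0.35, edgeR adjusted p 0.00466). The DESeq2 adjusted p of Arf6 was not given because of the filter there. On the other side Dtx3l rose by 1.65 ± 0.24 in KO2 (adjusted p 1.16e-05) and Gm10657 by 1.23 ± 0.30 (0.00770), the latter lost with DESeq2 (0.100) and without KO2 replicate 1 (0.0750). DESeq2 did not call Gm7276, opposite the sialyltransferase gene St8sia5, in KO2. Gm7276 held 6 and 11 counts in wild type and 23 and 20 in KO2 (1.32 ± 0.40, edgeR adjusted p 0.0358). Without wild type replicate 1 its adjusted p was 0.273, without KO2 replicate 1 0.190, without KO2 replicate 2 0.0550, and with no filter 0.0610.

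Between KO1 and KO2 directly, 94 of 498 members were called, 33 higher in KO1 and 61 lower. That was 18.9% of members against 19.3% of all tested genes, 6.63% against 7.93% higher and 12.2% against 11.4% lower. More members were thus called between the lines than between either line and wild type. The median log2 fold change was -0.03 over members, 0.02 over all tested genes and 0.22 over the 1662 tested genes with no gene opposite. The count was 52 without KO1 replicate 1 and 56 without KO1 replicate 2, where the share over all tested genes fell too, to 9.96% and 11.3%, and 38 of 352 with DESeq2, against 16.1% of all genes there.

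Other members with large differences between the lines follow. D430036J16Rik, opposite the serotonin receptor gene Htr1b, held 63 and 66 counts in KO1 and 19 and 18 in KO2, with 27 and 41 in wild type between them (1.74 ± 0.26, edgeR adjusted p 7.89e-06). Gm17595, opposite Kcnj3, which encodes a potassium channel, held 16 and 16 in KO1 and 57 and 49 in KO2, with 36 and 38 in wild type between (-1.78 ± 0.27, 1.25e-05). Gm17640, opposite Wdfy2, held 18 and 21 in KO1 and 37 and 58 in KO2 (-1.33 ± 0.27, 6.30e-04). 9530052E02Rik, opposite the insulin receptor substrate gene Irs2, held 21 and 30 in KO1 and 8 and 8 in KO2 (1.60 ± 0.40, 0.00394). Gm17475, opposite the amino acid transporter gene Slc7a2, held 10 and 12 against 29 and 28 (-1.42 ± 0.35, 0.00429). DESeq2 called neither 9530052E02Rik nor Gm17475 between the lines. The 9530052E02Rik call was lost without KO1 replicate 2 (0.0917) and the Gm17475 call without KO1 replicate 1 (0.0643). Gm4675, opposite the developmental transcription factor gene Sox21, was higher in KO1 than in KO2 by 1.19 ± 0.30 (adjusted p 0.00410), which was lost with DESeq2 (0.0720) and without KO2 replicate 2 (0.121). Larger differences than some of these were called at Gm17443 (1.47 ± 0.42, 0.0130), 4930417H01Rik (-1.50, 0.0406) and Arf6 (1.27).

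**Figure D4:**
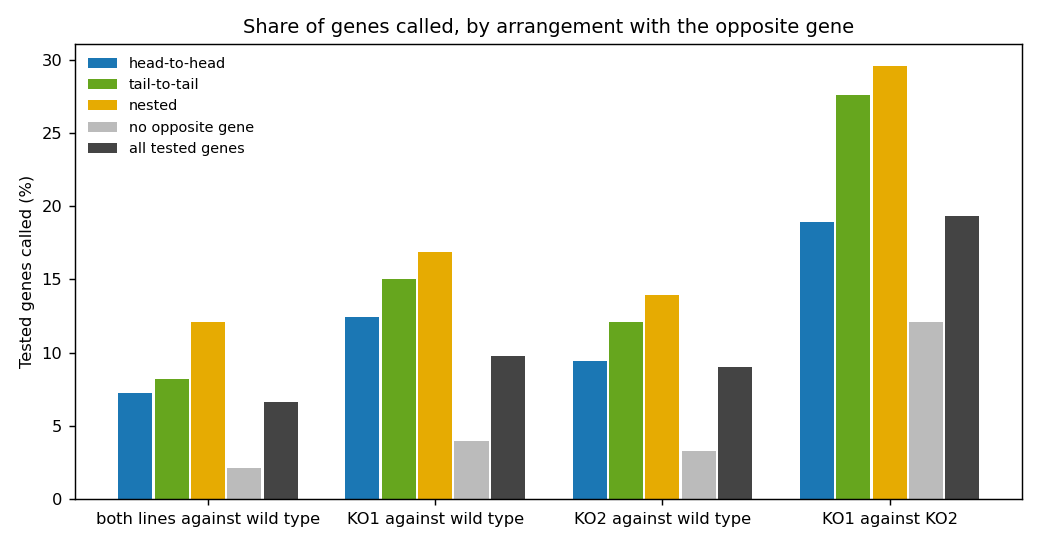
Percent of tested genes with an edgeR adjusted p under 0.05 (y axis, from 0) in each comparison, for head-to-head (498), tail-to-tail (895), nested (527) and unpaired (1662) genes of the same chromosomes and count minimum and for all 5034 tested genes. The head-to-head bars, at 7.23%, 12.4%, 9.44% and 18.9%, lie between those of unpaired and tail-to-tail genes.

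Beside the other arrangements, the shares called in the same 4 comparisons were 8.16%, 15.0%, 12.1% and 27.6% for tail-to-tail genes, 12.1%, 16.9%, 13.9% and 29.6% for nested genes, and 2.11%, 3.97%, 3.25% and 12.1% for genes with no gene opposite. The head-to-head shares lay below the first 2 sets and above the third, and these differences were not tested. The median summed count followed the same order for unpaired, head-to-head and tail-to-tail genes, at 115, 274 and 560 over the tested genes, with nested genes at 410. The part of the count in these shares was not tested.

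In 99 pairs both genes were members, which allows the strands of 1 locus to be set side by side. By the reading above, counts at each gene of a pair stand for fragments of the other. The gene with more counts held a median of 5.38 times as many as the other, from 1.04 to 90.6 times, with a ratio under 3 in 34 pairs and of at least 10 in 36. The log2 fold changes of both genes had the same sign in 49 of 99 pairs in the lines together, 58 in KO1, 53 in KO2 and 60 between the lines. Of the 198 genes in these pairs 6.06%, 10.6%, 7.58% and 14.1% were called in the 4 comparisons in turn, against 6.62%, 9.79%, 8.98% and 19.3% of all tested genes. In the lines together 10 pairs had 1 gene called and Pim1 with Gm16912 both. In KO1 the numbers were 17 and 2 (Pim1 with Gm16912, and Nudt16l1 with Gm16861), in KO2 11 and 2 (Pim1 with Gm16912, and Parp9 with Dtx3l), and between the lines 26 and 1 (Parp9 with Dtx3l). The Pim1 call in KO1 was lost with DESeq2 (0.0872) and without wild type replicate 1 (0.05003) or KO1 replicate 2 (0.0515), and that in KO2 without wild type replicate 1 (0.139) or 2 (0.0689) or KO2 replicate 1 (0.141), as edgeR or DESeq2 adjusted p.

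Parp9 and Dtx3l share 458 bases of exon on chromosome 16, from 35938556 to 35939237. Parp9 held 98 and 96 counts in wild type, 105 and 101 in line KO1 and 130 and 150 in line KO2. Both genes were highest in KO2, and against wild type they rose there by 0.52 ± 0.14 at Parp9 (edgeR adjusted p 0.0189) and 1.65 ± 0.24 at Dtx3l. The Parp9 call was lost with DESeq2 (0.176) and without wild type replicate 1 (0.0520) or 2 (0.0988) or KO2 replicate 2 (0.116). The share of the pair's counts at Parp9 was 74.8% and 84.2% in libraries of wild type cells, with 72.9% and 67.8% in KO1 and 61.3% and 65.2% in KO2. At Hspd1 and Hspe1, which share 112 bases, Hspe1 held 13 and 11 counts in libraries of wild type cells, with 15 and 21 in KO1 and 22 and 24 in KO2, and was not called (0.72 ± 0.32, adjusted p 0.213).

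At Nudt16l1 and the lincRNA gene Gm16861 (chromosome 16, 4935048 to 4939585), both genes were called in KO1. Gm16861 held 451 and 490 counts in wild type against 342 and 332 in KO1 and 493 and 590 in KO2. It was lower in KO1 (-0.55 ± 0.09, edgeR adjusted p 3.78e-05), not called in KO2 (0.19 ± 0.08, 0.146) and lower in KO1 than in KO2 (-0.74 ± 0.08, 8.36e-08). Nudt16l1 stood at -1.32 ± 0.43 in KO1 (0.0499) and -1.11 ± 0.43 in KO2 (0.106). Peo1, which encodes the mitochondrial DNA helicase Twinkle, shares 97 bases with the mitochondrial ribosomal gene Mrpl43. Counts at Peo1 were thus read as fragments of Mrpl43, and those at Mrpl43 as fragments of Peo1. Peo1 held 358 and 385 counts in wild type, 318 and 254 in line KO1 and 438 and 493 in line KO2. These counts were lower in KO1 (-0.44 ± 0.10, edgeR adjusted p 0.00188) and higher in KO2 (0.32 ± 0.09, 0.0226). The KO1 call was lost without KO1 replicate 2 (0.0852), and the KO2 call with DESeq2 (0.159) and without wild type replicate 1 (0.0844) or KO2 replicate 2 (0.0874). Mrpl43 was at -0.45 ± 0.18 and -0.46 ± 0.19 (0.125 and 0.128).

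**Figure D5:**
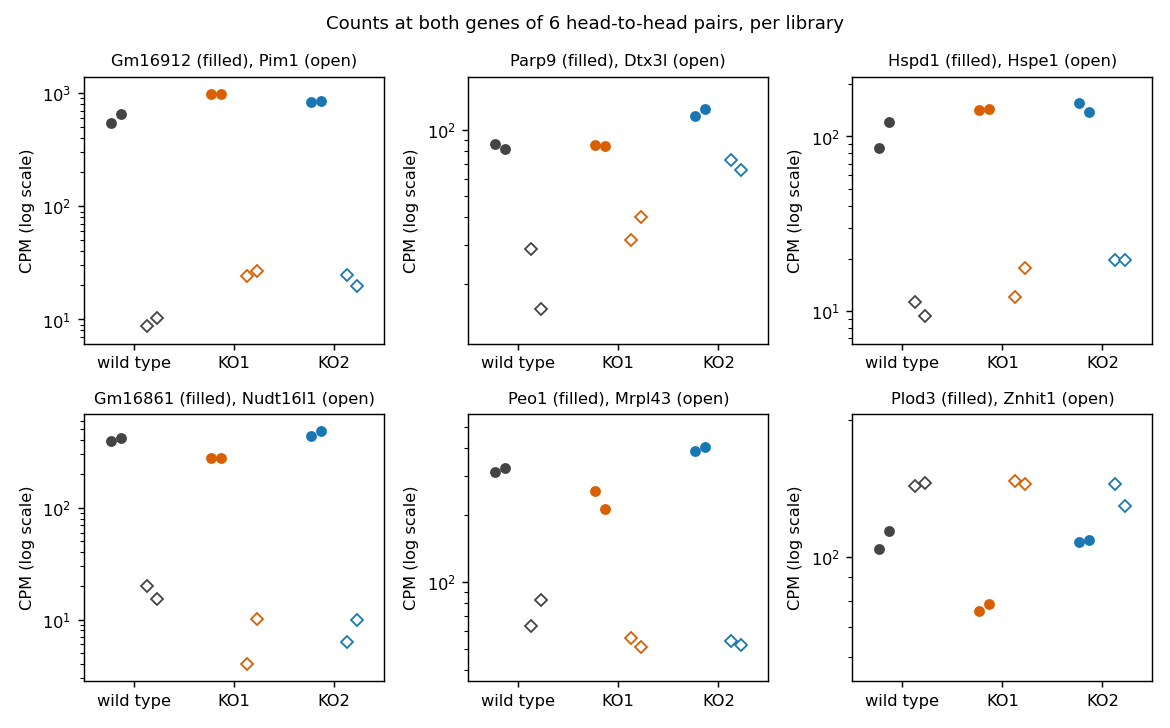
CPM (log scale, own range in each panel) at both genes of 6 head-to-head pairs in the 2 libraries of each group, filled circles for the gene named first and open diamonds for its partner. Both genes of the Pim1 pair lie higher in the knockout libraries, whereas at Plod3 and Znhit1 and at Peo1 and Mrpl43 the 2 strands differ in pattern.

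The 10 pairs with the largest counts at the lesser gene, ranked by the smaller summed count, are described next. Here too, counts at 1 gene of a pair stand for fragments of the other. Paics and Ppat, which encode enzymes of purine synthesis, held 136 to 210 and 115 to 150 counts per library, and Paics held 51.1% to 58.5% of the pair. Neither was called in the lines together (0.12 ± 0.12, adjusted p 0.656, and 0.26 ± 0.12, 0.226, by edgeR). Trmt112 and Prdx5, a methyltransferase partner and a peroxiredoxin, differed between the lines at Trmt112 (-0.32 ± 0.10, 0.0225) and were not called against wild type in either line. At Plod3, a collagen lysyl hydroxylase gene, counts were 119 and 134 in wild type against 94 and 94 in KO1 and 121 and 132 in KO2, lower in KO1 than in wild type (-0.49 ± 0.15, 0.0271). Znhit1 opposite it, a subunit gene of the SRCAP remodelling complex, held 157 to 182 counts and was at 0.02 ± 0.12 (0.960). DESeq2 called neither the fall in counts at Plod3 in KO1 nor the difference at Trmt112 between the lines. The pairs Acin1 with 1700123O20Rik, Fkbp8 with 2810422J05Rik, BC024978 with Snrpa, Snx17 with Eif2b4, Coq4 with Trub2, Pih1d1 with Aldh16a1, and Ccdc107 with RNase_MRP had no call in any of the 3 comparisons with wild type.

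At the edge of the rule, Tyw3, BC042782 (opposite Jun), Fam59b, Gm16876 and Gm9925 entered with 60 counts, and Wdr12, Gm17040 (opposite Cish) and Gm15420 (opposite Rps10) stayed out with 59. The shortest exonic overlap was 50 bases, at Kpna7, opposite Arpc1a, and Gm10767, opposite Uqcrb. Gm16876, opposite Gm8378, was the member that did not pass the filter. Library totals ran from 1150089 to 1285487 counts, of which AY036118 took 32.3% to 37.2%. Nsd1 held 21 and 25 counts in libraries of wild type cells, with 55 and 38 in KO1 and 27 and 21 in KO2, and these fragments, read as the opposite strand, are no check of the knockout.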

How the data were processed

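The authors deposited raw counts per gene, 1 table per library. Per the file headers, these counts were made with featureCounts 2.0.1 over exons, by gene, for paired reads with a strand setting of 1, on the GENCODE mouse version 1 annotation of mm9. Without giving roles, the submitters' processing notes list featureCounts 2.0.0, STAR 2.5.4b, Trim Galore 0.6.4, bedtools 2.92.2, GATK 4.1.4.0 and Bowtie2. The sources used here do not state if the library kit marks strand. Chromatin samples of the series, 44 of 50, were not analysed here.

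Members and opposite genes were computed from the exon coordinates of the tables, which matched that annotation for all 37310 genes. Where several genes lay opposite, the one with the largest exonic overlap was taken. Counts were fitted in R 4.3.3 with edgeR 4.0.16 (filterByExpr with a minimum count of 10, TMM scaling, robust quasi-likelihood, a mean for each of 3 groups over all 6 libraries, 3 residual degrees of freedom, common biological coefficient of variation 4.46%), with Benjamini-Hochberg adjustment over 5034 genes. Leave-one-out fits that leave 1 library in a group assume that it varies like the other groups. DESeq2 1.42.0 was the other tool. Sequences were read from the mm9 genome.

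Named members were the 6 with the largest counts, the called members with the largest changes whose groups did not overlap (up to 10 each way in the lines together with at least 5 CPM, 5 in the others), the 10 pairs with the largest lesser count, called or most abundant members of each gene list, and those at the thresholds. A few more called members, those of the figure of pairs and those opposite Sox21, Tbx3, Sall4 and Fn1, were added with their values in view. The members, lists and rule were chosen with earlier results of these data known. Tested on simulated counts, the lines together gave back 68 of 100 planted log2 changes of 1 and 88 of 100 of 2, with 8 false calls among 4961 genes. The simulation gave every gene the common spread and both lines the same change. Its numbers therefore do not carry over to genes with a larger spread or to changes that differ between the lines.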

Additional observations from a re-analysis of the deposited data

Results flagged for a closer look

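Each of the following is a member, or a count of members, for which the effects of KO1 and KO2 differed by the test of the lines against each other (edgeR's quasi-likelihood test, adjusted p under 0.05). Over all members 94 met this, and 28 of them are named in the report or below. The members that were higher in KO1 than in KO2 were A330033J07Rik (log2 difference 1.86), D430036J16Rik (1.74), Sugp2 (1.72), 9530052E02Rik (1.60), Gm17443 (1.47), Arf6 (1.27), Gm4675 (1.19) and 9430097D07Rik (1.16), and by less Gm15270 (0.46), Gm14261 (0.29), Gm2301 (0.27), Kctd18 (0.23) and Gm16912 (0.21). Those lower in KO1 were Gm16989 (-2.75), Gm17595 (-1.78), 4930417H01Rik (-1.50), Gm17475 (-1.42), Gm17640 (-1.33), Itgb3bp (-1.01) and Dtx3l (-0.95), and by less Peo1 (-0.76), Gm16861 (-0.74), Gm9947 (-0.55), Parp9 (-0.50), Plod3 (-0.48), Kpna7 (-0.35), Trmt112 (-0.32) and AY074887 (-0.24).

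The direction against wild type differed among them. Gm16912 was above wild type and Gm15270 and Gm9947 below it in each line, and by edgeR the lines differed in size. DESeq2 did not call the difference between the lines at Gm16912, Gm15270 or Gm9947, nor, among others, at Plod3, Trmt112 and AY074887. A330033J07Rik and Sugp2 were above wild type in KO1 and not called in KO2. The difference at Gm17443 was lost without KO1 replicate 1 (adjusted p 0.167), KO2 replicate 1 (0.0674) or KO2 replicate 2 (0.0549). 4930417H01Rik, opposite the zinc transporter gene Slc30a4, held 12 and 15 counts in wild type against 5 and 4 in KO1 and 11 and 14 in KO2. Its difference was lost without KO1 replicate 1 (0.131) or 2 (0.166), KO2 replicate 1 (0.0742) or 2 (0.194), and with no filter (0.0936). The difference at Parp9 was lost with DESeq2 (0.105) and without KO1 replicate 1 (0.0777) or 2 (0.0582) or KO2 replicate 2 (0.0805), and that at Kpna7 with DESeq2 (0.0747) and without KO1 replicate 1 (0.0585) or 2 (0.102) or KO2 replicate 2 (0.173).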

How the results depend on the processing

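Numbers of called members varied with the test and with single libraries. In the lines together they were 12 with DESeq2, 0 with KO1 and KO2 as 1 group, 23 with an overlap of at least 200 bases (fewer members) and 23 to 42 with a library left out, against 36. In KO1 they were 24 with DESeq2 and 34 to 71 with a library left out, against 62, and in KO2 6 and 23 to 43, against 47. Between the lines they were 38 and 52 to 107, against 94. DESeq2 gave no adjusted p for 129, 113, 146 and 146 of the 498 members because of its filter on low counts, so those calls could not be compared. Other scaling, AY036118 left out, no filter and at least 120 counts kept the counts within 1.5 times.

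With the replicate number as a block, 35, 60, 40 and 93 members were called, against 6.38%, 9.57%, 8.26% and 18.6% of all tested genes. Deviations of same-numbered libraries correlated at 0.0109, -0.00685 and -0.0356 between groups. Tested genes had a median summed count of 145, and counting noise at such levels can hide a shared deviation. These correlations therefore cannot tell whether same-numbered libraries were paired. Of 82 named values, 2 lost their call with the block.

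Some uncalled values near 0 in the lines together changed sign. With no filter Gm9828 was at -0.0034 and D17H6S56E-5 at -0.00048. With a library left out, the log2 values ran in 2810422J05Rik from -0.097 to 0.012, AY074887 from -0.072 to 0.034, Acin1 from -0.065 to 0.13, BC024978 from -0.0093 to 0.12, Ccdc107 from -0.084 to 0.11, D17H6S56E-5 from -0.016 to 0.032. In the same way they ran in Gm20512 from -0.074 to 0.029, Gm9828 from -0.023 to 0.027, Kctd18 from -0.11 to 0.0024, Rpl18 from -0.12 to 0.017, Znhit1 from -0.060 to 0.012. The cause of these changes was not tested. At 43 to 49 counts for the median member per library, small changes at most members are not detectable.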
